A study of Mus musculus with 16 samples.

Results

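The regions described here are the 6371 regions of open chromatin found on mouse chromosome 2, out of 80352 in the whole genome (7.93%), in prostate organoids that carry a mutation of SPOP (SPOPmut) and in Control organoids. Peaks sharing 1 bp or more across the 16 libraries were joined, regions present in 2 or more libraries were kept, and every such region on chromosome 2 was taken. The chromosome was chosen by these same data, because its regions were called more often and ranked higher in SPOPmut than in Control libraries. Every genotype difference given below for chromosome 2 is therefore a description without a test, set beside the same measure over all regions or over other chromosomes. The androgen treatment played no part in that choice, and its effects on chromosome 2 were tested.

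The assay was ATAC-seq: a transposase cuts DNA where chromatin is open, and peaks of its cuts mark open regions. The organoids, epithelial cultures grown from mouse prostate, were SPOPmut or Control, and each genotype received either 10 nM dihydrotestosterone (DHT, a natural androgen) or ethanol (EtOH) in its place, for 24 h in organoid medium from which mEGF was left out. The 4 groups were SPOPmut with DHT, Control with DHT, SPOPmut with EtOH and Control with EtOH, with 4 libraries each. All 4 groups carry the same label, sgNT. The labels give neither the SPOP mutation nor the promoter that drives it, the strain, or the age of the animals. Whether libraries within a group represent different animals, cultures or organoid lines is also not stated, so the spread behind each p-value may be technical.

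SPOP recruits substrates to a cullin 3 ubiquitin ligase, and the mutations found in prostate cancer lie in the cleft that binds those substrates. Steroid receptor co-activators, among them the product of the chromosome 2 gene Ncoa3, are known substrates in human cells. Chromosome 2 of the mouse also carries the Hoxd cluster, a cluster of whey acidic protein (WAP) and seminal vesicle protein genes, the imprinted Gnas locus and a series of epithelial genes such as Ehf, Cd44 and Itga6. The number of ATAC-seq fragments from a region depends on how open it is and on how many copies of it the cells hold. The deposited lists contain neither read counts nor input DNA, so copies of a segment and accessibility of each copy cannot be told apart.

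Lists held 58800 to 69644 peaks in SPOPmut and 57245 to 64521 in Control libraries, and these ranges overlapped. Sequencing depth is unknown, and no interval for counting error can be given. Krt5, Trp63 and Epcam, which mark epithelial cells, had a called region in each library. Of 7 genes of immune, endothelial and muscle cells, 4 also had a called region in every library. The share of regions that a library pair had in common was 0.837 to 0.929 within a group and 0.594 to 0.808 between groups, so no library stood apart from its group.

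The promoters at which an open region was present in every library of 1 genotype and absent from every library of the other, in both treatments, show the sequence behind the most complete differences. There were 12 such windows with the region in SPOPmut only and 4 with it in Control only, of 2847 RefSeq promoter windows on the chromosome (build GRCm38.p6, which is mm10, each 250 bases before to 50 after a gene start). The windows of Rassf2 and Gm31179 lie on the same region. The share of such windows over the genome is not given here. Of regions within 1 kb of a gene end, 1.69% on chromosome 2 and 0.78% elsewhere were in SPOPmut only in both treatments. In Control only were 0.424% and 1.36%. Printed are 2 windows for each direction: Plcb1, the gene with the largest excess of regions in SPOPmut, and Nfatc2, a calcium-responsive transcription factor gene with the highest-ranking SPOPmut-only promoter region, then Camk1d, which has the highest-ranking Control-only promoter region, and Zeb2, a repressor of epithelial genes. They lie at chr2:134785914-134786213 (plus strand, Plcb1), chr2:168590316-168590615 (minus strand, Nfatc2), chr2:5714713-5715012 (minus strand, Camk1d) and chr2:45110228-45110527 (minus strand, Zeb2). The Zeb2 window lies inside the gene body, which runs from 44983512 to 45117442. Of the 10 regions of Zeb2, 1 was present in Control only in both treatments. The gene as a whole had 5.5 called regions in SPOPmut and 4.62 in Control on average, with overlap. Capitals mark the AP-1 motif TGANTCA, searched on both strands.
Plcb1, open in SPOPmut: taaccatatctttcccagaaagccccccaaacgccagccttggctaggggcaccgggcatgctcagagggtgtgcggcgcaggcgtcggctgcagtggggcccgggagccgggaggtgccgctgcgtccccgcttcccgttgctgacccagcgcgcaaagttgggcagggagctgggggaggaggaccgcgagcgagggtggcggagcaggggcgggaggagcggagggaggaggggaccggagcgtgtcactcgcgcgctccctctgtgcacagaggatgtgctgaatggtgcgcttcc
Nfatc2, open in SPOPmut: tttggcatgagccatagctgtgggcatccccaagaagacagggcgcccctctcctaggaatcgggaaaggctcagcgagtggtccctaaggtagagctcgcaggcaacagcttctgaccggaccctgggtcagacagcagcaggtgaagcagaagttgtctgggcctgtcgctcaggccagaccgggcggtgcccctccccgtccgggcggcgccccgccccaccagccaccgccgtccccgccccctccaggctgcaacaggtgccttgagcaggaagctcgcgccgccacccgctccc
Camk1d, open in Control: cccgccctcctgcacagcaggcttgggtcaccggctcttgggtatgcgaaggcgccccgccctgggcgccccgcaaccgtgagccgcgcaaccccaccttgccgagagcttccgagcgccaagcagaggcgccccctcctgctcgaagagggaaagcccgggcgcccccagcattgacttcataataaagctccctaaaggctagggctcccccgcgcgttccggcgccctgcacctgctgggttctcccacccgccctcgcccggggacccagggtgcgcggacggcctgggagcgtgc
Zeb2, open in Control: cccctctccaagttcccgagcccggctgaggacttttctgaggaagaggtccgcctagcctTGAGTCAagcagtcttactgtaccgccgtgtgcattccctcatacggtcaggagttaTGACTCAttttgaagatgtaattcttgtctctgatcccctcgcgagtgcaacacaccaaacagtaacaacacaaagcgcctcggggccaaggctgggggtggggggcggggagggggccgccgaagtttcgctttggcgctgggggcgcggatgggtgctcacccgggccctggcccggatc
The Zeb2 window held 2 matches to the AP-1 motif and the other windows printed held none. At least 1 match was present in 7.81% of all 32851 mouse promoter windows and in 8.89% of the 2847 on chromosome 2. Among the separated windows not printed, only the SPOPmut-only window of Gm13420 held a match. The Control-only region at Gm46755, also not printed, ranked above that of Zeb2, at percentile 52.5. None of the 4 printed windows held the FOXA motif TGTTTAC (3.65% of all windows). The region at the Plcb1 promoter had a median rank at percentile 61.7 of SPOPmut lists and the Nfatc2 region at percentile 65.5. The Camk1d region stood at percentile 73.9 and the Zeb2 region at percentile 40.5 of Control lists.

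A larger part of the open regions of SPOPmut organoids lay on chromosome 2. In DHT, chromosome 2 held 8.42%, 8.47%, 8.4% and 8.37% of the called regions of the SPOPmut libraries, against 7.01%, 6.94%, 7.09% and 7.01% in Control libraries. In EtOH the shares were 8.4%, 8.42%, 8.39% and 8.46% in SPOPmut and 7.08%, 6.96%, 7.02% and 7.03% in Control. All 8 SPOPmut libraries were above all 8 Control libraries, and the mean was 8.42% ± 0.0350 against 7.02% ± 0.0512 (SD, n = 8 each), 19.9% more in relative terms. In absolute numbers a SPOPmut library called 5051 ± 254 regions of the chromosome and a Control library 4070 ± 223. The other 19 chromosomes without Y ranged between 15.5% less and 17.6% more in SPOPmut, chromosome 14 at the low end and chromosome 15 at the high end.

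The strength of the regions differed in the same direction. Each region was ranked in each library by the signal of its strongest peak, as a percentile among all peaks of that list, over the 2898 regions of chromosome 2 called in all 16 libraries. The median chromosome 2 region stood at percentile 71.4 ± 1.75 in SPOPmut and at percentile 62.0 ± 2.04 in Control libraries (SD, n = 8 each), with no overlap between genotypes. Regions of the other chromosomes stood at 66.7 ± 2.01 in SPOPmut and 66.6 ± 1.75 in Control. The shift of a region is its mean percentile in SPOPmut minus that in Control, averaged over DHT and EtOH. Its median was 7.82 points on chromosome 2, where 84.0% of regions had a positive shift, and -0.07 on the other chromosomes together, where 49.5% did. Chromosome 15 had a median shift of 7.09 points and chromosome 14 of -6.06.

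The difference was not even along the chromosome. The single division of the ordered regions that left the least sum of squares of the shift fell at 27.2 Mb (chr2:27201232, inside the body of Sardh, the gene of a mitochondrial sarcosine dehydrogenase), between neighbouring regions centred at 27043682 and 27358782. The mean shift was 1.85 points before this split and 9.30 points after it, a step of 7.45 points that accounts for 3.89% of the sum of squares. When each SPOPmut library was set alone against the Control mean of its treatment, the split fell between 24.9 and 27.7 Mb (SD 1.30 Mb, n = 8). It fell at 27.7 Mb with the DHT libraries and at 25.1 Mb with the EtOH libraries. A split on calls instead of ranks fell at 30.2 Mb. Chromosome X had the only larger step among the other 19 chromosomes, 10.7 points.

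Before the split the libraries of both genotypes overlapped. The 728 regions there made up 0.898% ± 0.0128 of the calls of SPOPmut libraries and 0.898% ± 0.0132 of those of Control libraries (SD, n = 8 each). Their median percentile was 64.9 ± 2.61 in SPOPmut and 62.6 ± 1.88 in Control, also overlapping. The 5643 regions after the split made up 7.52% ± 0.0377 in SPOPmut and 6.12% ± 0.0533 in Control, 22.9% more in SPOPmut with no overlap. Their median percentile was 72.1 ± 1.65 against 61.9 ± 2.07, again without overlap, and 86.6% of those called in all libraries had a positive shift, against 65.6% of those before the split.

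**Figure D1:**
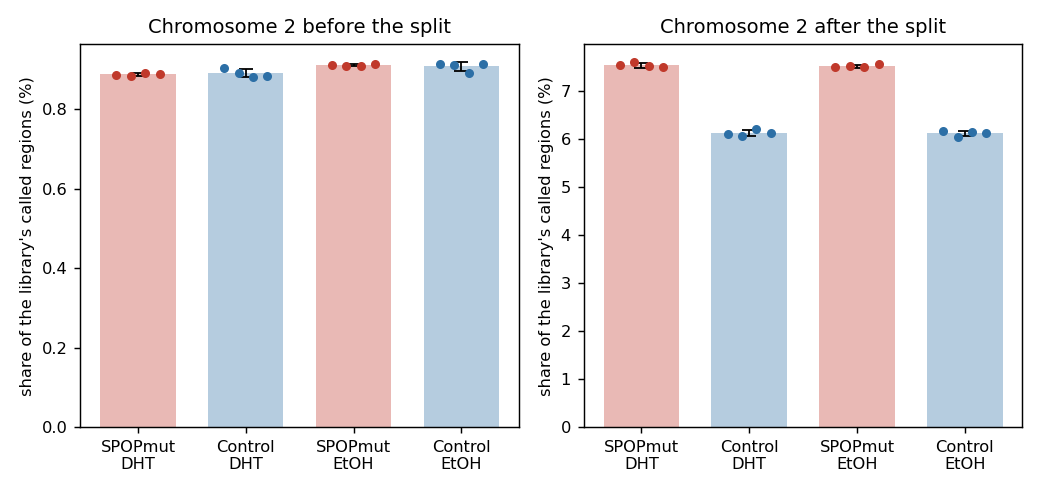
Share of a library's called regions (%, y axis from 0) that lies on chromosome 2 before the split (left) and after it (right), for SPOPmut and Control libraries with DHT and with EtOH. Points are libraries, bars are means and error bars SD (n = 4); the genotypes overlap before the split, at 0.898% on average in both, and after it SPOPmut libraries average 7.52% and Control libraries 6.12%.

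After the split the median shift was positive in all 28 bins of 5 Mb that could be read. In bins of 5 Mb with at least 20 regions called in all libraries, the median shift was 0.362 to 2.46 points in the 5 bins before the split, 4.46 in the bin that holds it and 5.57 to 13.3 in the 28 bins after it. The lowest bin, 5 to 10 Mb, held Camk1d and Usp6nl as the genes with most regions, and the highest, 175 to 180 Mb, held Cdh4, a cadherin gene, and Taf4, which encodes a TFIID subunit. The bins of the DHT and EtOH contrasts, which come from separate libraries, differed by at most 3.59 points (Pearson r = 0.924 over 34 bins, a description). On chromosome 2, 28 of the 34 bins exceeded 5 points (82.4%), against 20 of 409 bins elsewhere (4.89%), of which 12 were on chromosome 15, 4 on X, 2 on chromosome 7 and 1 each on chromosomes 1 and 5. In finer bins of 1 Mb the shift was 1.57 points at 26 to 27 Mb, 4.79 at 27 to 28 Mb, 2.93 at 28 to 29 Mb and 8.98 at 29 to 30 Mb. Farther on, 2 of 95 bins of 1 Mb with at least 10 regions called in all libraries went below 0, with -2.83 points over 13 regions at 93 to 94 Mb and -5.61 over 15 at 106 to 107 Mb. At 93 to 94 Mb a SPOPmut library called 20 regions and a Control library 29.5 on average. The lowest 1 Mb value after the split, -20.4 at 62 to 63 Mb, where Ifih1 lies, rests on 6 regions.

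**Figure D2:**
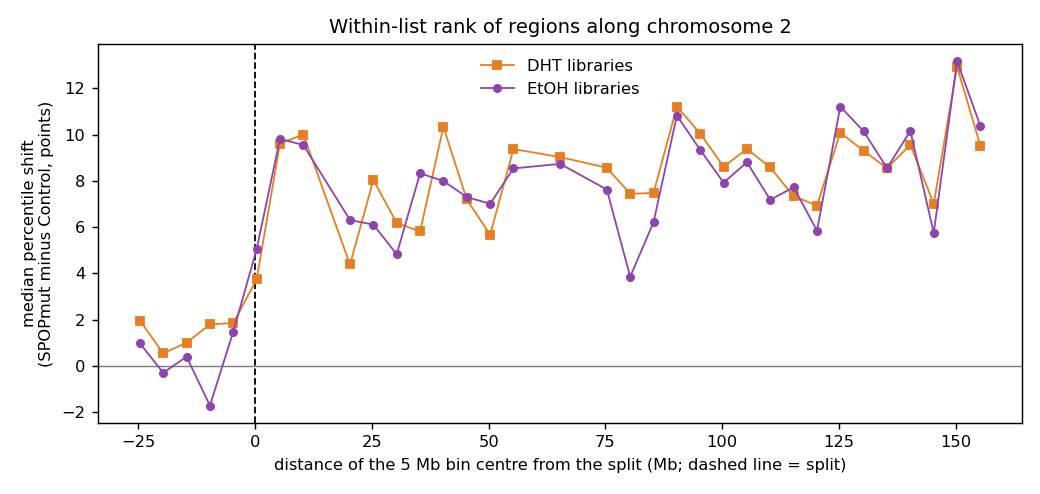
Median percentile shift (SPOPmut minus Control, points) of regions in 5 Mb bins against the distance of the bin centre from the split (Mb), for DHT and EtOH libraries, with the split as a dashed line. Averaged over treatments, the 5 bins left of the line lie at or below 2.46 points and the 28 bins right of it between 5.57 and 13.3 points.

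Genes around the split followed this order only in part. Before it, Egfl7, an endothelial secreted factor, had a median shift of -0.30 over 4 regions and Traf2, a TNF receptor adaptor, of 1.12 over 3 regions, but Notch1 reached 11.1 over 6 regions. Just after it, Vav2, a guanine nucleotide exchange factor, had 8.02 over 6 regions, whereas Rxra, the retinoid X receptor gene, had only 1.82 over 13 regions and Brd3 2.07 over 2 regions. Rxra counted 17.6 called regions in SPOPmut and 17.8 in Control libraries on average. Farther on, Rapgef1 had 11.2 points over 9 regions, Ptges, a prostaglandin E synthase gene, 9.78 over 8 and Abl1, a tyrosine kinase gene, 12.9 over 4. Rapgef1 was named for its position after its values were seen, and the others come from the gene lists.

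Further divisions changed little. The next splits fell at 114.9 Mb near Dph6, 36.1 Mb near Morn5 and 65.1 Mb near Cobll1, and all 4 together accounted for 4.98% of the sum of squares. From the start of the chromosome to its end, the 5 segments had median shifts of 1.77, 9.20, 6.41, 8.06 and 9.20 points. Called regions per library were 539 in SPOPmut against 521 in Control in the first segment, a ratio of 1.04, and 2465 against 1865 in the last, a ratio of 1.32. The 3 middle segments had ratios of 1.22, 1.21 and 1.21.

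Counts of calls per bin did not divide the chromosome as sharply as ranks. In the 5 bins before the split the ratio of SPOPmut to Control calls ran between 0.756 and 1.13, and 3 of the 5 were higher in SPOPmut. Called regions were more numerous in SPOPmut in 28 of 28 bins after the split, with ratios of 1.03 to 1.48, and in 24 of them SPOPmut and Control libraries did not overlap in either treatment. The smallest excess was at 90 to 95 Mb, with 138 called regions per SPOPmut library and 135 per Control library, although the median shift there was 8.94 points. At 170 to 175 Mb, where Gnas and Stx16 lie, SPOPmut libraries averaged 149 and Control libraries 140 called regions. At 15 to 20 Mb, before the split, SPOPmut had fewer, 46.1 against 61.0 in Control, and 9 regions there were lost in both treatments. This bin holds Plxdc2.

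Regions called in all 4 SPOPmut libraries and in no Control library of a treatment numbered 672 in DHT (10.5% of chromosome 2 regions, against 6.41% over all regions) and 590 in EtOH (9.26%, against 4.84%). The opposite pattern, in all 4 Control and no SPOPmut library, was found at 125 regions in DHT (1.96%, against 4.22%) and 137 in EtOH (2.15%, against 4.36%). In both treatments, 282 regions were present in SPOPmut only (4.43%, against 2.23%) and 57 in Control only (0.895%, against 2.02%). Of the 282, 12 lay before the split and 270 after it, while of the 57, 19 lay before and 38 after. Chromosome 2 held 15.8% of all regions of the genome that were present in SPOPmut only in both treatments.

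**Figure D3:**
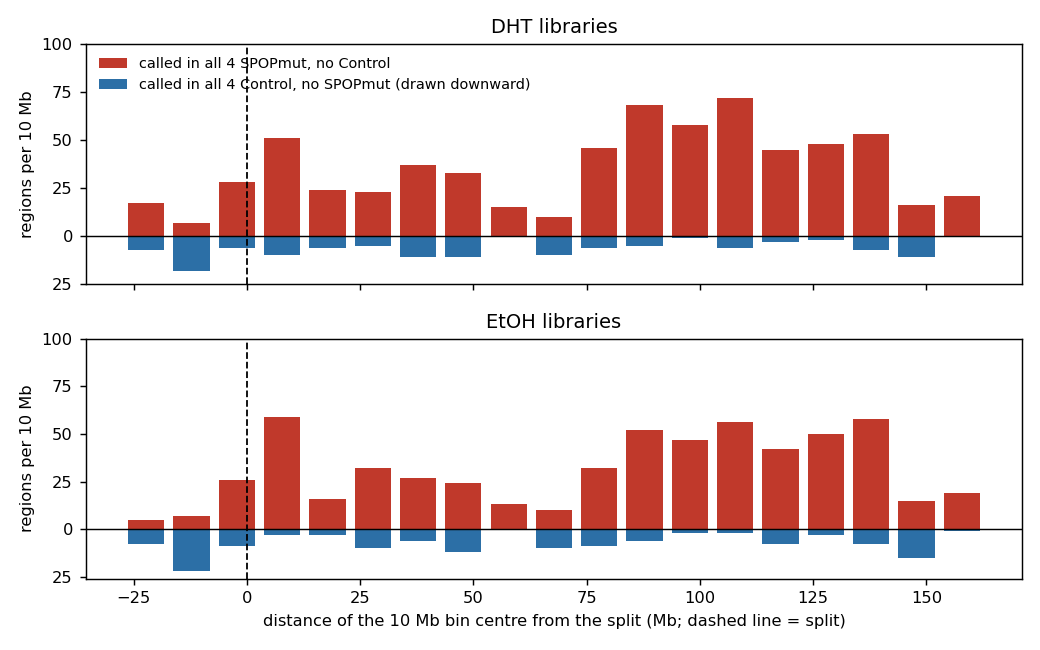
Number of regions per 10 Mb bin open in every SPOPmut library and in none of Control (upward) or in all 4 Control and no SPOPmut library (downward, counts also positive), against distance of the bin centre from the split (Mb), for DHT (top) and EtOH (bottom) libraries. SPOPmut-only regions total 672 in DHT and 590 in EtOH, Control-only regions 125 and 137, and the bin second from the left is the one with the most Control-only regions, 18 in DHT and 22 in EtOH.

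Values are also given by strength of the region, although the classes limit what can be seen. A ratio of calls must lie near 1 where nearly every region is called in both genotypes, a weak region can enter the set through libraries of 1 genotype, and a rank near the top can rise little. After the split, the median shift was 5.78, 11.6, 13.1, 10.1 and 5.20 points for regions with a mean percentile of 0 to 20, 20 to 40, 40 to 60, 60 to 80 and 80 to 100. In the strongest class, 93.6% of regions called in all libraries had a positive shift. SPOPmut libraries called 2.06 times as many regions as Control libraries in the weakest class, then 1.41, 1.18, 1.04 and 1.01 times in the stronger classes. On the other chromosomes the same ratios were 0.999 to 1.04 and the median shifts between -0.57 and 0.08 points. Of the 727 regions in the strongest class, SPOPmut libraries called 727 and Control libraries 723 on average.

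**Figure D4:**
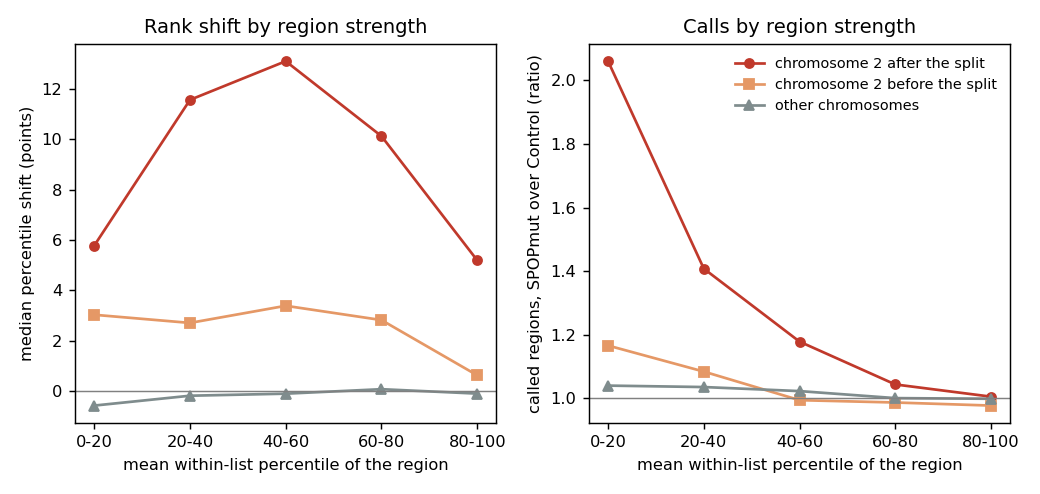
Median percentile shift (left, points) and ratio of called regions, SPOPmut over Control (right), for classes of mean within-list percentile, on chromosome 2 after the split, before it, and on the other chromosomes. After the split the shift peaks at 13.1 points in the middle class and the ratio is 2.06 in the weakest class and 1.01 in the strongest.

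Regions of every location took part. After the split, the median shift was 9.22 points for the 645 regions within 1 kb of a gene end called in all libraries (96.6% positive), 8.56 for the 1018 inside gene bodies (85.3%) and 8.08 for the 883 outside genes (80.7%). Before the split the same values were 2.96, 2.04 and 0.114 points. By width, the ratio of called regions after the split was 1.83 for regions under 500 bp and 1.06 for those of 1000 bp or more. Chromosome 2 regions had a median width of 657 bp, against 668 bp elsewhere, and 45.5% of them were called in all libraries, against 49.2% elsewhere.

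The regions present in SPOPmut only in both treatments had a median rank at percentile 37.6 of SPOPmut lists, and those present in Control only at percentile 35.8 of Control lists. The highest-ranking SPOPmut-only regions were chr2:115757376-115759130 within BC052040 (percentile 88.5), chr2:180511820-180513345 within Ntsr1, which encodes a neurotensin receptor (85.0), chr2:137603200-137605010 and chr2:137794513-137795422 with no protein-coding gene within 100 kb (81.2 and 80.5), and chr2:127713916-127715359 within Mall (80.1). The highest-ranking Control-only regions were chr2:16355872-16358373 and chr2:16450737-16451884 within Plxdc2 (percentiles 93.7 and 79.6), chr2:5729909-5731016 near Camk1d and chr2:5713322-5715180 at its promoter (83.7 and 73.9), and chr2:24478384-24479441 near Pax8 (65.7). All 5 Control-only regions lay before the split and all 5 SPOPmut-only regions after it.

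Regions were assigned to the protein-coding gene whose body covers them or lies within 100 kb, which placed 5766 of the 6371 (90.5%). Called regions were counted for the 900 chromosome 2 genes with at least 2 regions, of 11209 in the genome. At 177 of the 900 (19.7%, against 7.89% of all genes) every SPOPmut library had more called regions than every Control library in both treatments. The reverse held for 15 (1.67%, against 4.67% of all genes). Before the split there were 9 higher and 5 lower genes of 116, and after it 168 higher and 10 lower of 784.

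Plcb1, a phospholipase C that produces second messengers downstream of G protein-coupled receptors, had the most added regions. It had 18, 17, 19 and 20 called regions in SPOPmut libraries with DHT, against 5, 4, 4 and 4 in Control libraries with DHT. With EtOH it had 21, 20, 21 and 21 in SPOPmut and 6, 4, 6 and 5 in Control. Genotypes were far apart in both treatments, by 14.9 regions on average, and 8 of its 26 regions were present in SPOPmut only in both.

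Macrod2, a very long gene whose product removes ADP-ribose from proteins, had 45, 42, 47 and 51 called regions in SPOPmut and 35, 33, 36 and 33 in Control libraries with DHT. With EtOH it had 45, 41, 45 and 40 in SPOPmut and 33, 31, 34 and 31 in Control. It gained 11.2 regions on average, spread over 59 regions and without overlap of the genotypes.

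Rnd3, an atypical small GTPase, had 14, 16, 16 and 17 called regions in SPOPmut against 7, 7, 10 and 9 in Control with DHT, and 20 in each SPOPmut library against 10, 9, 10 and 10 in Control with EtOH. Lgr4, a receptor for R-spondins in Wnt signalling, had 15 in every SPOPmut and 7 in every Control library with DHT. With EtOH Lgr4 had 14, 14, 14 and 12 in SPOPmut and 7, 7, 8 and 7 in Control. BC052040 (7.75 more regions), Eya2, a transcriptional co-activator with phosphatase activity (7.50 more), Cobll1 (7.12 more) and Slco4a1, an organic anion transporter (6.88 more), completed the 8 genes with the largest excess, all after the split.

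**Figure D5:**
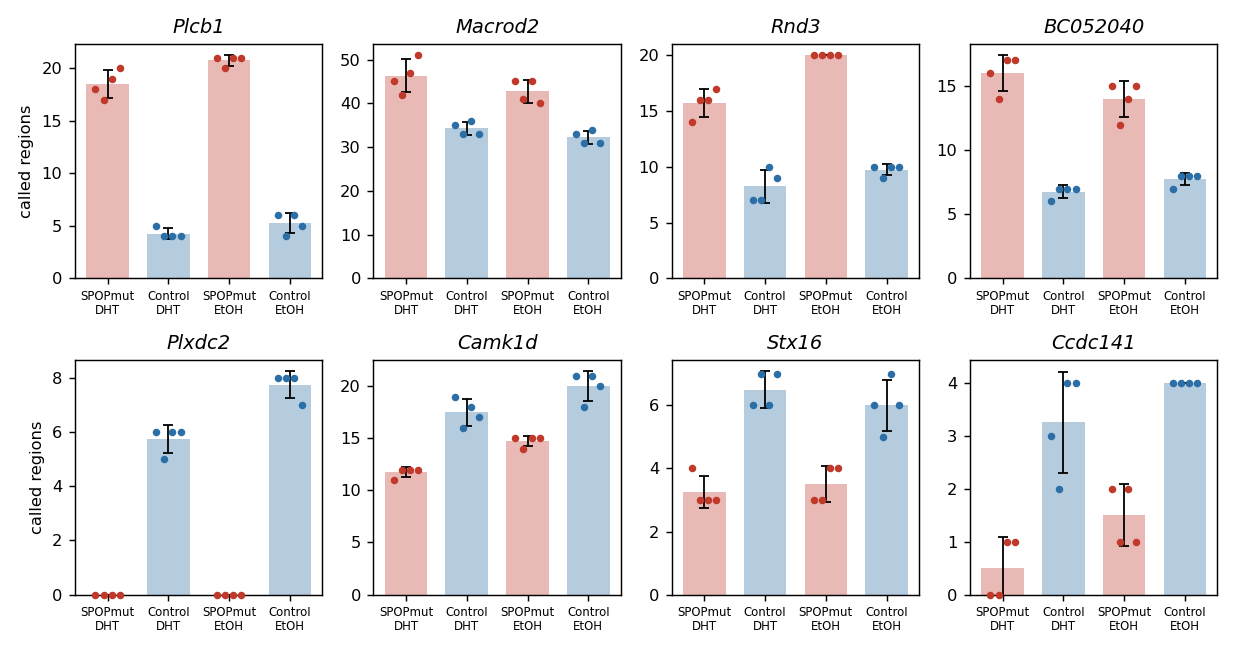
Called regions per library (y axes from 0) at the 4 chromosome 2 genes with the largest excess in SPOPmut (top row: Plcb1, Macrod2, Rnd3, BC052040) and the 4 with the largest deficit (bottom row: Plxdc2, Camk1d, Stx16, Ccdc141). Points are libraries, bars are means and error bars SD (n = 4); SPOPmut and Control libraries do not overlap in any panel within a treatment, and Plxdc2 is at 0 in all 8 SPOPmut libraries.

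The genes that went against the shift were led by Plxdc2, which encodes a transmembrane protein with a plexin-like domain. It had 0 called regions in each of the 8 SPOPmut libraries, against 6, 5, 6 and 6 in Control libraries with DHT and 8, 8, 8 and 7 with EtOH. The loss covered the gene: 5 of its 8 regions were called in every Control and no SPOPmut library in both treatments, among them the strongest Control-only region of the chromosome. Camk1d, a calcium/calmodulin-dependent kinase, had 11, 12, 12 and 12 called regions in SPOPmut against 19, 16, 18 and 17 in Control with DHT. With EtOH Camk1d had 15, 14, 15 and 15 in SPOPmut and 21, 18, 21 and 20 in Control, and its 11 regions called in all libraries had a median shift of -10.7 points. Both genes lie before the split, as do Sfmbt2, Itga8 and Arl5b, the other 3 lower genes there.

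The 10 lower genes after the split lay among regions with a positive shift. Stx16, a syntaxin of endosome-to-Golgi transport, had 4, 3, 3 and 3 called regions in SPOPmut against 6, 7, 6 and 7 in Control with DHT, and 3, 3, 4 and 4 against 6, 5, 7 and 6 with EtOH. Itgb6, the beta subunit of an epithelial integrin that activates TGF-beta, had 18, 18, 19 and 20 in SPOPmut against 22, 21, 22 and 23 in Control with DHT, and 16 in every SPOPmut library against 18, 17, 18 and 17 with EtOH. Itgb6 showed only part of the pattern in ranks, since its 13 regions called in all libraries had a median shift of 4.83 points. The others were Ccdc141, Wipf1 (which binds the actin regulator WASP), Prdm11, Pamr1, Gad1 (a GABA-synthesising enzyme), Ifih1 (a sensor of double-stranded RNA), Hao1 and Fam210b, with 1.38 to 2.62 fewer regions. Regions within 1 Mb of these 10 genes had a positive median shift at 9 of them, the exception being Ifih1, and a median over the 10 of 7.04 points. The genes' own regions called in all libraries, present at 7 of the 10, had a median of -4.79 points. That median covers values of both signs, 3 of the 7 being positive (Itgb6, Pamr1 and Fam210b), and 4 of the 7 rest on a single region.

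Gene lists by role showed how widely the excess was spread, beside the 19.7% higher and 1.67% lower of all tested genes of the chromosome. Counts at single genes stand beside the excess of the chromosome itself. SPOPmut libraries called 1.24 times as many of its regions as Control libraries, and 1.27 times as many after the split. An excess at or below these ratios, such as that of Cd44 below, is not particular to the gene. Of 21 tested epithelial factors and adhesion genes, 7 were higher in SPOPmut without overlap and only Itgb6 was lower. Lama5, a laminin chain of basement membranes, had 10.6 called regions in SPOPmut and 5.50 in Control on average, Cd44, a hyaluronan receptor, 29.6 against 25.1, Itga6, an integrin of basal cells, 16.8 against 12.2, and Cebpb, a transcription factor, 20.1 against 16.2. Ehf and Elf5, epithelial ETS factors, overlapped between genotypes, with changes of 2.38 and 0.125 regions, the second of which turned negative as a share of all calls. Foxa2 and Jag1 also overlapped, with 1.12 and 2.00 more. Gata3, which lies before the split, had 9.62 in SPOPmut and 10.6 in Control, overlapping, and a median shift of -10.1 points over 8 regions.

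Of 17 tested steroid receptor, co-regulator and androgen response genes, 4 were higher and none lower. Ncoa3 had 8, 8, 7 and 8 called regions in SPOPmut against 4, 4, 5 and 5 in Control with DHT, and 7, 7, 8 and 8 against 5, 4, 4 and 4 with EtOH, with a median shift of 16.9 points over 4 regions. Nr6a1, an orphan nuclear receptor, had 7.25 against 4.25 on average, and Sord and Asxl1 were the other 2. Creb3l1 had 2.38 fewer regions in SPOPmut, with overlap, although its 5 regions called in all libraries had a median shift of 14.7 points. Pmepa1, an androgen-induced feedback regulator of TGF-beta signalling, overlapped, with 0.25 more regions and a negative difference as a share of all calls.

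Among 23 tested signalling genes 4 were higher and none lower, including Ptpn1, a tyrosine phosphatase, with 19.8 against 16, and Acvr2a, an activin receptor, with 5.38 against 3.25. The change was above 0 at 21 of the 23 and below 0 only at Plcb4. Plcb4 had 3.25 against 5.25 called regions, with overlap, and a median shift of -25.6 points over 3 regions. Among 11 tested cell cycle genes 4 were higher and none lower: Tpx2, a spindle assembly factor, with 4.50 against 1.00, Bub1b, a spindle checkpoint kinase, with 5.12 against 3.12, Gins1, a replication helicase subunit, with 3.12 against 1.12, and Trp53bp1, a DNA damage response gene, with 5 against 4. Of 9 genes of the Hoxd and Dlx block only Evx2 was higher, and Hoxd13 had 2 called regions in each of the 16 libraries, although the median shift of those 2 regions was 26.9 points. None of 6 tested secretory and WAP genes, with Slpi and Wfdc2 among them, and none of 10 tested housekeeping genes was separated in either direction. Their median changes were 0.562 and 0.5 regions, against 0.625 over the 900 genes of the chromosome. Counts could not separate Hspa5, Psmd14 and Set, whose 2 regions were called in every library. In ranks, every tested member of both lists with a region called in all libraries had a positive median shift. These shifts ran from 4.16 points at Wfdc11 to 20.4 at Wfdc8.

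A list of long genes had 19 tested members, of which Cst3 and Dnmt3b are in fact under 50 kb. Of the other 17, 7 were higher and none lower, among them Ralgapa2, with 18.1 against 11.4 called regions, and Lrp1b, with 5.38 against 0.5. Over all 19, the change was above 0 at 14 and below 0 at 5, the latter with overlap. Among these, Ptprt had 5.75 against 8 called regions and a median shift of -12.5 points over 4 regions. Nebl, before the split, had 5.75 against 7.88 and -7.99 over 2. Kif5c had 12.2 against 12.4 and -11.4 over 7. Of 5 tested genes of a list named imprinted, L3mbtl1 was higher and Sfmbt2 lower. Whether each of them, L3mbtl1 included, is imprinted in these mouse cells was not tested. Gnas, which encodes a stimulatory G protein subunit, had 5, 5, 6 and 5 regions in SPOPmut against 7, 6, 7 and 7 in Control with DHT. There a library of each genotype had 6. With EtOH Gnas had 6, 5, 6 and 6 in SPOPmut against 8, 7, 8 and 8 in Control, without overlap. Its 5 regions called in all libraries had a median shift of 8.19 points. L3mbtl1 had 1.25 more regions in SPOPmut, but a difference of -0.375 with lists of equal length and -0.125 with a stricter signal limit.

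Of the lists for other cell types on chromosome 2, endothelial, immune and stromal had more called regions in SPOPmut, and neuroendocrine and neuronal fewer. Beside these sums stands the excess of the chromosome itself. SPOPmut libraries called 1.24 times as many of its regions as Control libraries, and 1.27 times as many after the split. The median change of the immune genes was 0.312 regions, against 0.625 over the 900 genes of the chromosome. Of 5 tested endothelial genes Thbd and Procr were higher, of 8 immune genes Il1rn, of 5 stromal genes Meis2 and Fbn1, with none lower, and of 3 neuroendocrine and neuronal genes Gad1 was lower. Ranks did not follow the counts at all of the higher genes. The median shift was -20.6 points over 1 region at Thbd and 1.22 over 9 at Meis2. It was 7.46 over 3 at Procr, 2.36 over 3 at Il1rn and 11.2 over 1 at Fbn1. Summed over its list, a library called 28 to 31 endothelial regions in SPOPmut with DHT against 23 to 26 in Control with DHT, and 30 to 31 against 25 to 27 with EtOH. The immune sums were 26 to 32 in SPOPmut against 24 to 26 in Control with DHT and 27 to 31 against 21 to 24 with EtOH. The stromal sums were 27 to 34 against 19 to 23 with DHT and 29 to 33 against 20 to 26 with EtOH. Fap and Grem1 were at 0 in every library. Meis2 held 20 of the 41 stromal regions, with 18 against 9.75 called on average with DHT and 16 against 11.5 with EtOH. Fbn1 had 3.12 against 1.62 over both treatments, while Zeb2, Snai1 and Col5a1 overlapped between genotypes. The neuroendocrine sums ran the other way, 13 to 15 in SPOPmut against 16 to 18 in Control with DHT and 14 to 16 against 16 to 17 with EtOH, with Insm1, Pcsk2 and Syt13 at 0. Gad1 had 0.375 called regions in SPOPmut against 2 in Control on average, while Snap25 and Neurod1 overlapped between genotypes. The median shift was positive at both, 5.15 points over 6 regions at Snap25 and 12.1 over 4 at Neurod1. The part of such cells in the values above was not tested.

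No change of the chromosome as a whole was detected with DHT. The share of called regions on chromosome 2 was 8.41% ± 0.0437 with DHT and 8.42% ± 0.0307 with EtOH in SPOPmut, and 7.01% ± 0.0602 with DHT and 7.02% ± 0.0495 with EtOH in Control (SD, n = 4). The pooled difference of -0.00573 percentage points gave p = 0.795 in an exact two-sided permutation test within genotype (4900 arrangements), 0.835 after Benjamini-Hochberg adjustment over 21 chromosomes. The DHT effect was 0.00428 points larger in SPOPmut than in Control (permutation p = 0.920, adjusted 0.966). In 10 Mb bins, 0 of 19 on chromosome 2 changed in median percentile at an adjusted p under 0.05 in the exact permutation test, 2 had an unadjusted p under 0.05, and 17 of 260 bins in the genome passed (6.54%).

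Single regions and genes passed the tests for DHT, in which libraries were not paired by replicate number. Of the 6371 regions, 80 were called more often with DHT (1.26%, against 1.51% of all regions) and 15 less often (0.235%, against 0.259%) at an adjusted p under 0.05 in an exact test stratified by genotype. Of the 900 genes, 49 had more called regions (5.44%, against 5.42% of all genes) and 18 fewer (2.00%, against 3.14%) in the exact permutation test. Counted as shares of each library's calls, 106 genes passed upward and 66 downward, and without library 2 of Control with EtOH 33 genes and 23 regions passed downward. The smallest p this test can give is 0.000408, which became 0.0119 after adjustment over 11209 genes, and unless stated this is the adjusted p of the genes below.

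Itgb6 rose with DHT in both genotypes, by 3.62 regions on average, with the values given above. Abhd12, a lipid hydrolase, had 12, 11, 11 and 11 called regions with DHT and 7, 5, 5 and 5 with EtOH in SPOPmut, and 6 in every library with DHT and 5 in every library with EtOH in Control (mean effect 3.38). Gm52523 had 9, 10, 11 and 11 with DHT and 5, 5, 6 and 6 with EtOH in SPOPmut, and 6, 6, 6 and 7 with DHT and 3, 2, 4 and 2 with EtOH in Control (4.12). The difference in DHT effect between genotypes was not tested for single genes. Chp1 and Epc2, a chromatin gene, each rose by 2.88 regions. The lists by role added Ovol2, an epithelial repressor (1.5, higher with DHT in both genotypes), and Vav2 (2.62). They also added Bmp7 (2.62, adjusted permutation p = 0.0288), Ptpn1 (2.75, adjusted p = 0.0477) and Sp3 (2.00, adjusted p = 0.0256). From the immune list, Cytip (1.12) and Il1a (0.875) passed as well, each with an adjusted permutation p = 0.0288.

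Fewer genes fell with DHT. Nek6, a mitotic kinase gene, had 4, 5, 7 and 7 called regions with DHT and 10, 9, 11 and 8 with EtOH in SPOPmut, and 4, 3, 4 and 5 with DHT and 6, 5, 6 and 6 with EtOH in Control (mean effect -2.75, adjusted permutation p = 0.0206). Ccdc148 fell by 2.38 regions, Cubn, an endocytic receptor, by 2.12, Trdmt1, a tRNA methyltransferase, by 1.75 and L3mbtl1 by 1.25. Of the long genes, Ralgapa2 fell by 3.5 regions (adjusted permutation p = 0.0477) and Gpr158 by 2.62 (adjusted p = 0.0206). Camk1d, lower in SPOPmut, also fell with DHT, by 2.75 regions (adjusted permutation p = 0.0256), and Rnd3, higher in SPOPmut, fell by 2.88 (adjusted p = 0.0465). Plcb1 had 1.62 fewer regions with DHT on average, which did not pass (adjusted permutation p = 0.0777).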

How the data were processed

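ATAC-seq peak lists of 16 libraries, 4 in each group, were used. Per the submitters' processing notes the reads were handled with Bowtie2 2.3.4.1, SAMtools 1.8 and Genrich (version not given in the sources used here) on mm10. The signal of a peak was deposited by the authors, with a smallest value just over 200, as was its -log10 p; the deposited score is capped and was not used for results. Both values depend on depth, which is unknown, and were used for ordering or thinning the peaks of 1 list, never across lists. Signal tracks pooled over replicates were not used here.

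Peaks sharing 1 bp or more were joined into 86616 regions, and the 6264 found in 1 library were set aside. A region was called in a library where a peak overlapped it. Genes came from the RefSeq table of build GRCm38.p6, and promoter sequences from RefSeq. Each region went to the shortest protein-coding body over its midpoint, otherwise to the nearest within 100 kb. The split was placed by least squares with segments of at least 5 Mb. DHT was tested with exact two-sided permutation of treatment labels within genotype (4900 arrangements) for shares, genes and bins and an exact stratified hypergeometric test for regions, each with Benjamini-Hochberg adjustment over the whole genome and a threshold of 0.05. Tests were checked on simulated data. Python 3.11.15, NumPy 2.4.6, pandas 2.3.3, SciPy 1.17.1 and Matplotlib 3.10.9 were used.

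The members, gene lists and tests were chosen with earlier results of these data known. Named genes are up to 8 per direction with the largest genotype change among non-overlapping genes, 5 regions per direction with the highest rank, 5 genes per direction with the smallest adjusted p for DHT, up to 4 per list (13 lists), those nearest a split or in the extreme bins, and a set always included. The alternatives were equal list length, a stricter signal, summits, more lists per region, other ranks, bins and gene distances, replicate pairing, and leaving out each library. Some items are not reported here.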

Additional observations from a re-analysis of the deposited data

Results flagged for a closer look

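The share of called regions before the split was 0.891% in library 3 of Control with EtOH, against a median of 0.911% in the other libraries of that group, a gap that stood apart from the group's range. Among library-level values (28 groups of 4 libraries) this was the only one. Counts of called regions at named genes stood apart in 78 of 268 groups of 4. In all of these the other 3 libraries had the same whole number, so any different count was taken, and the difference was 1 region in 69 of them. Chance flags about 1 in 20 groups where values are not tied. Larger differences were found in 9 groups. Lgr4 had 12 called regions in library 4 of SPOPmut with EtOH, against 14 in the others of its group. Ralgapa2 had 21 called regions in library 3 of SPOPmut with EtOH, against 19 in the others of its group. Cd44 had 28 called regions in library 2 of SPOPmut with EtOH, against 30 in the others of its group. Ptpn1 had 13 called regions in library 2 of Control with EtOH, against 16 in the others of its group. Abhd12 had 7 called regions in library 1 of SPOPmut with EtOH, against 5 in the others of its group. Acvr2a had 1 called region in library 2 of Control with EtOH, against 4 in the others of its group. Zeb2 had 3 called regions in library 2 of Control with EtOH, against 5 in the others of its group. Epc2 had 5 called regions in library 2 of SPOPmut with EtOH, against 7 in the others of its group. Gata3 had 11 called regions in library 4 of SPOPmut with DHT, against 9 in the others of its group.

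Library 1 of SPOPmut with DHT, 1 region from the others, had 12 at Slco4a1, 12 at Abhd12, 4 at Il1rn, 6 at Wfdc2, 11 at Pmepa1, 4 at Stx16 and 11 at Camk1d. Library 2 of SPOPmut with DHT, 1 region from the others, had 29 at Cd44, 21 at Ptpn1, 5 at Taf4, 9 at Cubn, 0 at Gad1 and 1 at Wipf1. Library 3 of SPOPmut with DHT, 1 region from the others, had 7 at Ncoa3, 2 at Gins1 and 6 at Gnas. Library 4 of SPOPmut with DHT, 1 region from the others, had 2 at Foxa2. Library 1 of Control with DHT, 1 region from the others, had 5 at Plcb1, 6 at BC052040, 10 at Ralgapa2, 1 at Fbn1 and 3 at Trdmt1. Library 2 of Control with DHT, 1 region from the others, had 3 at Procr, 1 at Thbd, 8 at Epc2, 9 at Gata3, 1 at Sfmbt2, 6 at Gnas and 5 at Plxdc2. Library 3 of Control with DHT, 1 region from the others, had 4 at Evx2, 7 at Chp1, 1 at Foxa2 and 5 at Pax8. Library 4 of Control with DHT, 1 region from the others, had 13 at Itga6, 7 at Gm52523, 4 at Bub1b and 9 at Cubn. Library 1 of SPOPmut with EtOH, 1 region from the others, had 19 at Eya2 and 3 at Wipf1. Library 2 of SPOPmut with EtOH, 1 region from the others, had 20 at Plcb1, 5 at Acvr2a, 4 at Bub1b, 3 at Slpi, 9 at Gata3, 5 at Gnas, 1 at Pamr1 and 14 at Camk1d. Library 3 of SPOPmut with EtOH, 1 region from the others, had 4 at Fbn1, 7 at Taf4 and 12 at Cubn. Library 4 of SPOPmut with EtOH, 1 region from the others, had 6 at Il1rn, 4 at Chp1 and 7 at Elf5. Library 1 of Control with EtOH, 1 region from the others, had 7 at BC052040, 5 at Ncoa3, 4 at Il1rn, 4 at Chp1 and 4 at Pamr1. Library 2 of Control with EtOH, 1 region from the others, had 9 at Rnd3, 5 at Nek6, 3 at Evx2, 7 at Gnas and 4 at Wipf1. Library 3 of Control with EtOH, 1 region from the others, had 8 at Lgr4, 2 at Gins1, 1 at Foxa2 and 13 at Pmepa1. Library 4 of Control with EtOH, 1 region from the others, had 6 at Egfl7 and 7 at Plxdc2. No named gene responded to DHT in opposite directions in every library of the genotypes.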

How the results depend on the processing

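The excess of chromosome 2 in SPOPmut kept its direction under each setting run. The difference in share was 1.40 percentage points as reported, 1.48 with lists of equal length, 1.52 with a signal of 400 or more, 1.28 with regions from summits, 1.31 with regions in 4 or more lists, and 1.39 to 1.41 leaving out each library. The median shift, 7.82 points, was 9.89 when ranked by -log10 p and 7.48 to 8.14 leaving out each library. The split, 27.2 Mb, moved to 25.1 Mb with EtOH alone, 24.9 Mb with regions in 12 or more lists, 30.2 Mb on calls and 25.2 to 27.2 Mb leaving out each library. It fell at 28.9 Mb both by absolute deviations and on regions within 1 kb of a gene end, 2 alternatives chosen after seeing the data. Regions separated between genotypes, leaving out each library, numbered 672 to 819 higher and 125 to 144 lower in SPOPmut with DHT, and 590 to 696 higher and 137 to 185 lower with EtOH, counts that a left-out library can only raise. They were 625 and 148 with DHT and 539 and 135 with EtOH with lists of equal length, and 617 and 113, and 511 and 92, with a signal of 400 or more. The DHT difference in share, -0.00573 points, ranged from -0.0186 to 0.00589 leaving out each library. It was positive without library 2 of Control with DHT, library 4 of SPOPmut with DHT, library 1 of Control with EtOH or library 4 of SPOPmut with EtOH. The difference in DHT effect between genotypes, 0.00428 points, ranged from -0.0190 to 0.0300. It was negative without library 2 of SPOPmut with DHT, library 2 of Control with DHT, library 1 or 3 of SPOPmut with EtOH, or library 1 of Control with EtOH. Genes that changed with DHT, leaving out each library, numbered 44 to 57 higher and 16 to 33 lower, and regions 80 to 86 higher and 15 to 23 lower. The highest of the lower counts, 33 genes and 23 regions, came without library 2 of Control with EtOH. As shares of each library's calls, 106 genes were higher and 66 lower. The number of 10 Mb bins that passed for DHT, 0 as reported, was 1 when ranked by -log10 p, 0 to 1 leaving out each library, and 3 in bins of 5 Mb. For L3mbtl1 the genotype difference of 1.25 regions became -0.375 with lists of equal length and -0.125 with a signal of 400 or more. The cause was not tested for any of these. With the replicate number as a block, 0 genes and 0 regions were higher and 0 lower with DHT (adjusted p = 0.149 in the exact permutation test for the 10 genes named), a test whose smallest unadjusted p is 0.00781, against 0.000408 unpaired. The labels do not say what the numbers mark, and same-numbered libraries did not all deviate together: 9 of 24 pairs correlated over 0.1 (-0.325 to 0.220), and 12 of 24 correlated best with their own number. Number 2 did so in 6 of 6 pairs, 5 of them over 0.1, and had the fewest called regions in all 4 groups (53406 to 57139), whereas number 4 did so in 0 of 6. Depth is unknown, so a region missing from a list was not detectable there, and not shown to be closed.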
